A study of Mus musculus with 12 samples.

Results

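The genes described here are the 10 Slit, Robo and netrin guidance genes *Slit1*, *Slit2*, *Slit3*, *Robo1*, *Robo2*, *Robo3*, *Ntn1*, *Dcc*, *Unc5c*, and *Neo1*. They were picked by name and matched by NCBI gene identifier among 45777 genes. Total RNA was sequenced from mouse ventral spinal cord at E12.5, cut to the tissue around *Hb9::GFP*, a transgene that labels motor neurons (MNs). For each genotype, *Isl2* +/- (heterozygote) or *Isl2* -/- (KO), there were 3 brachial and 3 lumbar libraries, so that every embryo carried at least 1 null allele and no wild-type group was compared. The design text gives 3 animals for each genotype, and whether a brachial and a lumbar library came from the same embryo was not given. The tissue was a bulk dissection in which MNs were not sorted from progenitors, interneurons, floor plate or blood.

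Slit proteins are secreted ligands that repel growing axons through Robo receptors, and the floor plate at the ventral midline is their best known source in the spinal cord. Netrin-1, the product of *Ntn1*, is secreted there too and attracts axons through Dcc and its relative neogenin (*Neo1*), whereas receptors of the Unc5 family turn the response to netrin into repulsion. Motor axons and commissural axons both use these cues, and Robo3 is best known from commissural axons before they cross the midline.

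Both *Slit2* and *Slit3* host a copy of miR-218, a microRNA known for its high level in MNs, and its sequences are shown because they sit inside members of the set. Mir218-1 (chr5:48223942-48224051, plus strand) lies in an intron of *Slit2*, and Mir218-2 (chr11:35616816-35616925, plus strand) in an intron of *Slit3*, with none of the 289 and 52 annotated exon records of the hosts overlapping them. The mature sequences below are from RefSeq (GRCm38.p6), 5′ to 3′, with the seed, bases 2 to 8, in capitals.
mmu-miR-218-5p: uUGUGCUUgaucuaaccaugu
mmu-miR-218-1-3p: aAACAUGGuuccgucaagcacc
mmu-miR-218-2-3p: cAUGGUUCugucaagcaccgcg
The 5p product is the same from both loci and has one seed, while the 3p products of the *Slit2* and *Slit3* loci carry different seeds. In the 2 hairpins of 110 bases, the 5p product is in capitals.
Mir218-1 hairpin: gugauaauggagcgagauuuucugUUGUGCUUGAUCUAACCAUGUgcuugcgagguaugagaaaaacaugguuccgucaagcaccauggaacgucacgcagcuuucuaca
Mir218-2 hairpin: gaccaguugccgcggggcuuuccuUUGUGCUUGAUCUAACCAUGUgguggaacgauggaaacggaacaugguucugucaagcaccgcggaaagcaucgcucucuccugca
Total RNA libraries read the hairpin loci through longer transcripts and do not measure the mature microRNA.

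The 10 genes lie on 7 chromosomes and, apart from *Robo3*, are long. In mm10 coordinates the ligand genes are *Slit1* (chr19:41597824-41747275, minus strand), *Slit2* (chr5:47981291-48307735, plus strand), *Slit3* (chr11:35121456-35708507, plus strand), and *Ntn1* (chr11:68209364-68386826, minus strand). The Robo receptor genes are *Robo1* (chr16:72027518-73047491, plus strand), *Robo2* (chr16:73891976-75447443, minus strand), and *Robo3* (chr9:37416045-37433436, minus strand). The netrin receptor genes are *Dcc* (chr18:71253613-72351228, minus strand), *Unc5c* (chr3:141465564-141834924, plus strand), and *Neo1* (chr9:58874679-59036614, minus strand). *Robo3* and *Neo1* are on the chromosome of the deleted gene, *Isl2* (chr9:55538677-55547667), 18.11 and 3.33 Mb away from it. The gene spans ran from 17.4 kb for *Robo3* and 149.5 kb for *Slit1* to 1097.6 kb for *Dcc* and 1555.5 kb for *Robo2*.

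Values below are TPM (transcript abundance scaled to gene length and to one fixed total per library) divided by one size factor per library, and log2 differences were taken after adding 0.1. Aligned bases ranged from 4.48 to 6.64 Gb over the 12 libraries, with the lowest depth in brachial KO replicate 3, and 22983 to 24191 genes had values above 0. That library also stood apart in *Xist*, at 77.0 against 18.04 to 32.6 in the other 4 libraries with *Xist* above 1, and in the summed level of 5 blood markers, at 5923 TPM against 1942 to 4266 in the other 11 libraries. Brachial, between-level and interaction differences of the guidance genes are therefore also given without it. *Isl2*, the deleted gene, was at 8.73, 8.33, and 9.72 in the brachial heterozygotes and 6.03, 7.28, and 4.47 in the brachial KO libraries. It was at 10.3, 8.43, and 9.43 in the lumbar heterozygotes and 7.33, 6.53, and 8.24 in the lumbar KO libraries. At both levels every KO library was below every heterozygote library, the direction that the labels give. Groups did not overlap for 20.1% (brachial) and 9.94% (lumbar) of all genes tested. The log2 differences of *Isl2* were −0.61 and −0.35 (limma adjusted p = 0.357 and 0.999), so it did not pass an adjusted p of 0.05. Its value covers the whole gene and does not show which exons are missing.

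All 10 guidance genes were well above the filter of a mean TPM of 0.5. Over the 12 libraries the order of the mean levels was *Ntn1* (114 ± 11.2 TPM, SD, n = 12), *Robo1* (79.5 ± 10.8), *Slit2* (70.3 ± 9.99), *Neo1* (67.0 ± 6.52), *Robo2* (49.3 ± 12.3), *Slit1* (48.6 ± 9.91), *Robo3* (44.6 ± 9.07), *Dcc* (36.2 ± 10.6), *Slit3* (17.2 ± 3.56), and *Unc5c* (16.1 ± 2.02). Some steps in this order held in every library and others did not. *Ntn1* was above *Robo1*, *Neo1* above *Robo2*, and *Dcc* above *Slit3* in 12 of 12 libraries, and *Robo3* was above *Dcc* in 11. *Robo1* was above *Slit2* in 10 libraries, with a log2 ratio of 0.18 ± 0.22 (SD, n = 12). By the deposited per-base coverage *Robo1* was far lower, at 4.57 to 6.74 against 148 to 234 for *Slit2*. The place of *Robo1* in this order therefore depends on the measure. The neighbours *Slit2* and *Neo1*, *Robo2* and *Slit1*, and *Slit1* and *Robo3* were in this order in 7 libraries each, and *Slit3* was above *Unc5c* in 5. Those 4 pairs differed by less than their spread over libraries. The ratio of the highest to the lowest library was 2.80 for *Dcc*, 2.49 for *Robo2*, and 2.08 for *Robo3*, and between 1.36 (*Neo1*) and 1.83 (*Slit1*) for the other members.

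**Figure D1:**
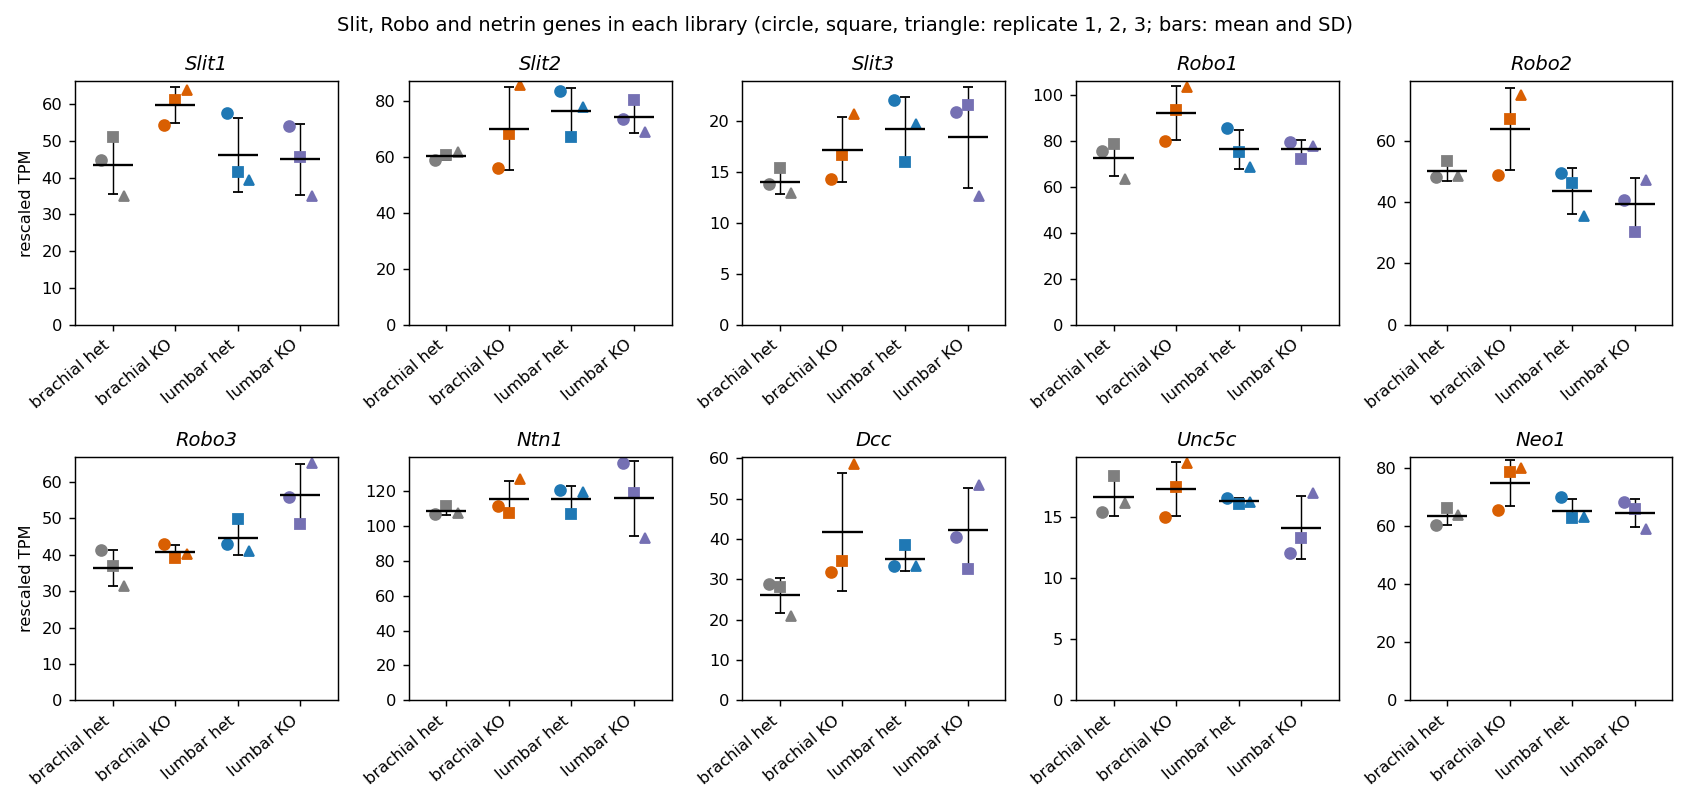
Rescaled TPM of each guidance gene in each library, by level and genotype, with the mean (line) and SD (bars) of the 3 libraries of a group. *Robo3* was highest in lumbar KO replicates 3 and 1 (65.3 and 55.8), and *Dcc* its highest value (58.5) in brachial KO replicate 3.

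The comparison of levels asked which guidance genes differed between the ventral cord that faces the forelimb and that which faces the hindlimb. *Robo3* was higher and *Robo2* lower at the lumbar level, and the other 8 genes did not pass the test (limma, genotype as a term, 12 libraries, Benjamini-Hochberg adjusted p under 0.05). These 2 calls among 10 genes stand beside 18.5% of 16706 genes called in the same fit. In a bulk sample, fewer cells of a type and less RNA per cell cannot be told apart. With *Slit2*, 3 members had an unadjusted p under 0.05, beside 32.2% of all genes. The median log2 difference of the 10 genes was −0.02, beside 0.01 over all genes tested.

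*Robo3*, which encodes a Robo receptor of commissural axons, was at 41.3, 36.8, and 31.4 TPM in the brachial heterozygotes and 42.9, 39.2, and 40.3 in the brachial KO libraries. At the lumbar level it was at 42.8, 49.9, and 41.1 in the heterozygotes and 55.8, 48.4, and 65.3 in the KO libraries. The lumbar libraries were the higher ones on average, 50.6 against 38.7 TPM, but their lowest values lay within the brachial range, so the levels overlapped. The log2 difference was 0.38 (SE 0.09), a 1.297-fold higher level, with a limma adjusted p of 0.0105, and 0.36 (limma adjusted p = 0.0199) without brachial KO replicate 3. An exact two-sided permutation test that exchanged levels within each genotype gave p = 0.01, where 0.005 is the smallest p it can give. Within the heterozygotes alone the difference was 0.29 (limma adjusted p = 0.216), and within the KO libraries 0.46 (limma adjusted p = 0.0758). With the TPM as deposited, a scaling that puts the median of all genes at −0.13, the difference was 0.24 with a limma adjusted p of 0.118.

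*Robo2*, a receptor for Slit ligands, was at 48.3, 53.6, and 48.5 TPM in the brachial heterozygotes and 49.0, 67.4, and 75.2 in the brachial KO libraries. At the lumbar level it was at 49.5, 46.3, and 35.4 in the heterozygotes and 40.8, 30.2, and 47.3 in the KO libraries. The 2 highest libraries were brachial KO replicates 3 and 2 and the lowest was lumbar KO replicate 2, while the remaining brachial and lumbar values met between 48.3 and 49.5. The log2 difference was −0.45 (SE 0.14), from 57.0 to 41.6 TPM, with a limma adjusted p of 0.0455 and an exact permutation p of 0.015. It was −0.21 in the heterozygotes alone (limma adjusted p = 0.409) and −0.70 in the KO libraries alone (limma adjusted p = 0.0966). The call was also lost with no filter on low values (limma adjusted p = 0.0944), quantile normalization (0.0504), no trend (0.0700), and replicate number as a block (0.0579), and when any of 7 libraries was left out. The limma adjusted p was 0.0829 without brachial heterozygote replicate 2, 0.108 without brachial KO replicate 2, 0.0843 without brachial KO replicate 3 (difference −0.37), and 0.102 without lumbar heterozygote replicate 3. It was 0.0781, 0.0851, and 0.0557 without lumbar KO replicates 1, 2, and 3.

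Among the ligands, *Slit2* and *Slit3* had higher mean values at the lumbar level without passing the test. *Slit2* was at 58.8, 60.9, and 61.9 TPM in the brachial heterozygotes, 56.2, 68.4, and 85.7 in the brachial KO libraries, 83.8, 67.2, and 78.1 in the lumbar heterozygotes, and 73.5, 80.4, and 69.1 in the lumbar KO libraries. Every lumbar library was above all 3 brachial heterozygotes, whereas brachial KO replicate 3 was the highest of the 12. The log2 difference of *Slit2* was 0.22 (SE 0.10, limma adjusted p = 0.136), and 0.30 with a limma adjusted p of 0.0135 without brachial KO replicate 3. *Slit3* ranged from 12.9 to 20.7 TPM in the brachial and from 12.6 to 22.1 in the lumbar libraries, with a log2 difference of 0.26 (SE 0.15, limma adjusted p = 0.253), and 0.34 (limma adjusted p = 0.121) without brachial KO replicate 3. Its lowest value came from lumbar KO replicate 3, without which the difference was 0.39 (limma adjusted p = 0.0315). In the heterozygotes alone *Slit2* and *Slit3* had differences of 0.33 and 0.44 (limma adjusted p = 0.0862 and 0.117), and in the KO libraries alone 0.10 and 0.07 (0.721 and 0.881). The third Slit gene, *Slit1*, ranged from 34.9 to 63.9 TPM at the brachial and from 34.9 to 57.6 at the lumbar level, and *Ntn1* from 107 to 127 and from 93.4 to 136. Their log2 differences were −0.18 (95% interval −0.49 to 0.14) and 0.04 (−0.13 to 0.22), and −0.13 and 0.08 without brachial KO replicate 3. For *Slit1* the difference was −0.28 without lumbar heterozygote replicate 1 and −0.07 without lumbar KO replicate 3. *Slit1* was at 0.08 in the heterozygotes and −0.43 in the KO libraries (limma adjusted p = 0.851 and 0.150).

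Of the other receptors, *Dcc* had a log2 difference of 0.24 between levels (95% interval −0.12 to 0.60), *Robo1* −0.09 (−0.29 to 0.10), *Unc5c* −0.16 (−0.37 to 0.05), and *Neo1* −0.09 (−0.24 to 0.07). No limma adjusted p among these 4 was below 0.27. *Dcc* depended on single libraries, with 0.38 (limma adjusted p = 0.0504) without brachial KO replicate 3 and 0.15 (0.556) without brachial heterozygote replicate 3. It was 0.44 in the heterozygotes alone (limma adjusted p = 0.122) and 0.04 in the KO libraries alone (0.945). Without brachial KO replicate 3 the other 3 were at −0.04 (*Robo1*), −0.11 (*Unc5c*), and −0.05 (*Neo1*). None of the 10 genes had brachial and lumbar libraries that did not overlap, beside 8.31% of all genes tested.

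**Figure D2:**
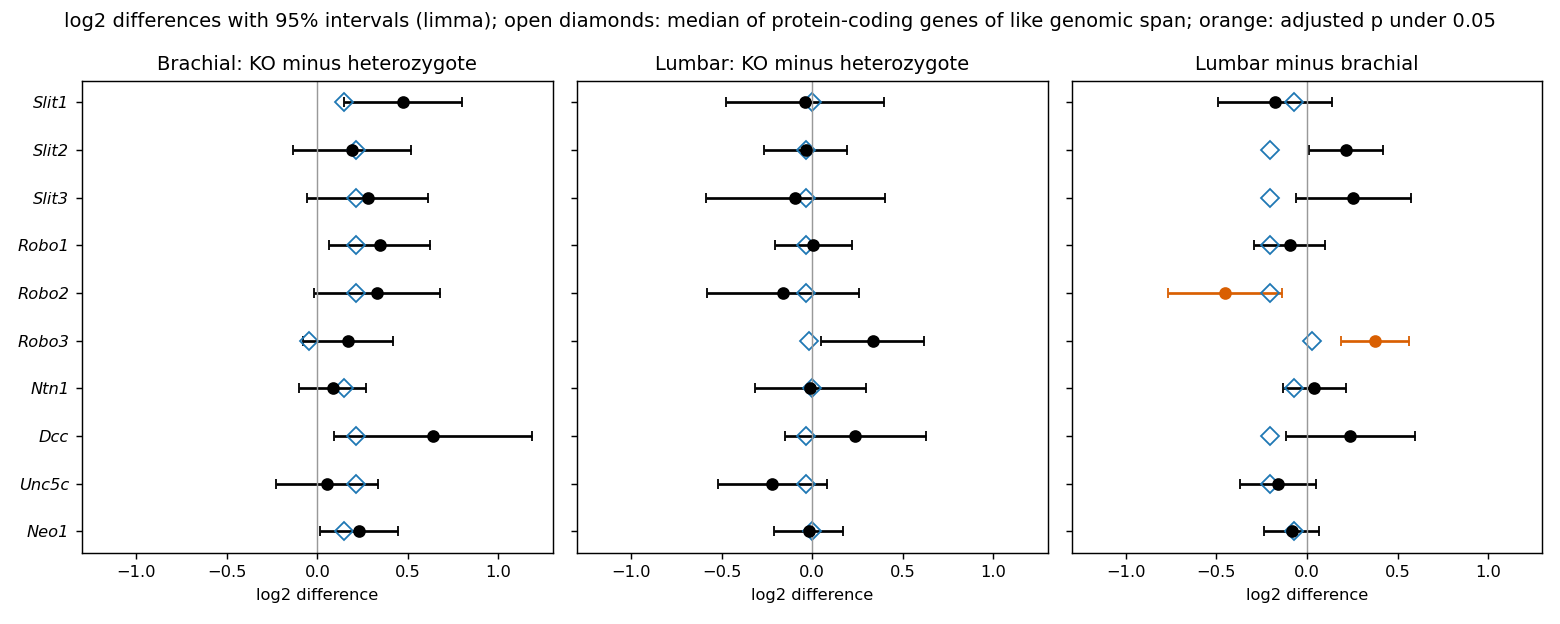
Fitted log2 differences (points) with 95% intervals from limma for KO minus heterozygote at each level and for lumbar minus brachial, with genes past an adjusted p of 0.05 in orange. Open diamonds give the median of protein-coding genes of like genomic span. *Robo2* and *Robo3* are the orange points, and all 10 brachial points lie above 0.

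The comparison of genotypes at the brachial level asked whether loss of *Isl2* went with other levels of guidance genes. All 10 genes had a log2 difference above 0, higher in the KO than in the heterozygote libraries, beside 48% of 16775 genes tested, and none passed an adjusted p of 0.05 in limma, beside 0.00596%. *Slit1*, *Robo1*, *Dcc*, and *Neo1* had an unadjusted p under 0.05, beside 13.9% of all genes, and all 4 had higher KO values, beside 6.71%. This last share was 16.55% of protein-coding genes spanning 100 to 300 kb and 19.02% of those over 300 kb, the classes of these 4 genes. In 3 of the 4 genes, *Slit1*, *Robo1*, and *Dcc*, every KO library was above every heterozygote library, beside 9.68% of all genes. The median log2 difference of the 10 genes was 0.25, beside −0.01 over all genes tested. The study set a threshold of a log2 difference beyond 0.5 with an unadjusted p under 0.05 for genes lower in the KO. Mirrored here to higher genes, it was passed by *Dcc* alone among the members, beside 2.21% of all genes in this direction.

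*Dcc*, the netrin receptor, was at 28.9, 28.2, and 20.9 TPM in the brachial heterozygotes and 31.9, 34.6, and 58.5 in the KO libraries. The groups did not overlap, and KO replicate 3 was far above the other libraries. The log2 difference was 0.64 (SE 0.23, limma adjusted p = 0.357), and 0.37 without that library, with an unadjusted p still under 0.05. The unadjusted p was no longer under 0.05 without heterozygote replicate 3 (difference 0.49), without the trend, and with replicate number as a block. With 3 libraries against 3, the exact permutation p of 0.1 is the smallest possible.

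*Slit1* was at 44.7, 51.0, and 34.9 TPM in the brachial heterozygotes and 54.3, 61.2, and 63.9 in the KO libraries. The groups did not overlap, with heterozygote replicate 2 and KO replicate 1 nearest to each other. The log2 difference was 0.47 (SE 0.14, limma adjusted p = 0.357), and it was 0.42 without KO replicate 3 and lay between 0.32 and 0.59 when one library was left out at a time, with an unadjusted p under 0.05 each time. *Slit1* was the one member for which that was so.

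*Robo1*, the receptor that shares its chromosome with *Robo2*, was at 75.8, 78.6, and 63.5 TPM in the brachial heterozygotes and 79.9, 93.6, and 103 in the KO libraries. The groups did not overlap, but heterozygote replicate 2 and KO replicate 1 were close. The log2 difference was 0.34 (SE 0.12, limma adjusted p = 0.357), and 0.26 without KO replicate 3. *Neo1* was at 60.3, 66.2, and 63.8 TPM in the heterozygotes and 65.6, 78.5, and 80.0 in the KO libraries, so that KO replicate 1 lay within the heterozygote range. Its log2 difference was 0.23 (SE 0.09, limma adjusted p = 0.357), and 0.18 without KO replicate 3.

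The remaining 6 members had brachial log2 differences of 0.33 (*Robo2*), 0.28 (*Slit3*), 0.19 (*Slit2*), 0.17 (*Robo3*), 0.08 (*Ntn1*), and 0.05 (*Unc5c*), with overlapping groups and limma adjusted p between 0.359 and 0.840. Without KO replicate 3 they were 0.20 (*Robo2*), 0.14 (*Slit3*), 0.03 (*Slit2*), 0.18 (*Robo3*), 0.01 (*Ntn1*), and −0.03 (*Unc5c*), with limma adjusted p between 0.684 and 0.962. The *Robo3* difference was 0.07 without heterozygote replicate 3 and 0.26, with an unadjusted p under 0.05, without heterozygote replicate 1. The KO libraries were not alike in these genes. Brachial KO replicate 3 was above the 12-library mean in 9 of 10 genes (median log2 deviation 0.29) and KO replicate 2 in 5 (0.06), whereas KO replicate 1 was above it in 3 (−0.03). The number of members with an unadjusted p under 0.05 was 7 without KO replicate 1 (beside 25.9% of all genes), 2 without KO replicate 2 (8.81%), 2 without KO replicate 3 (6.18%), and 1 without heterozygote replicate 3 (4.67%). KO replicate 1 alone lay below the mean of the 3 heterozygotes for *Slit2* (−0.11), *Robo2* (−0.030), and *Unc5c* (−0.15). As values of 1 KO library these are given as sizes only.

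**Figure D3:**
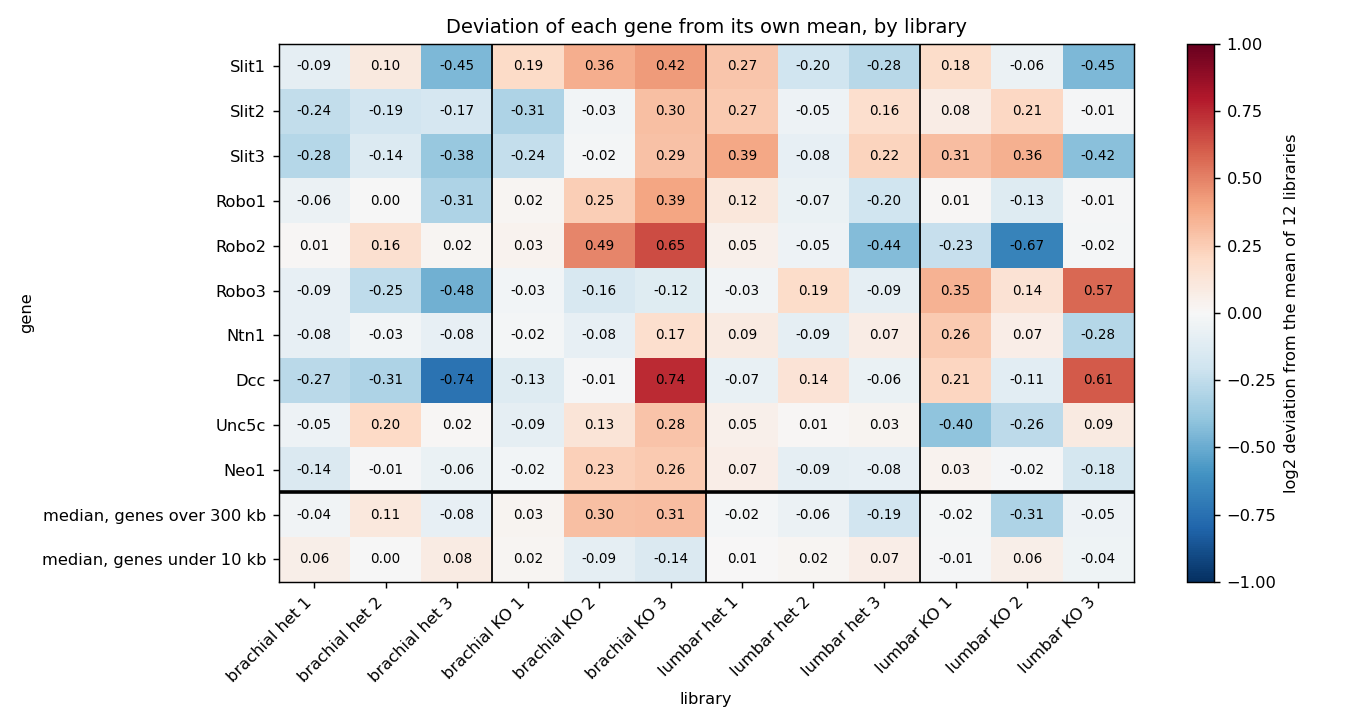
Deviation of log2(rescaled TPM + 0.1) from each gene's mean over the 12 libraries, for the 10 guidance genes and, below the black line, for the median of protein-coding genes spanning over 300 kb and under 10 kb. In brachial KO replicate 3, 9 of 10 guidance genes lie above their mean, and the long genes are at 0.31.

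Long genes as a class had higher values in 2 of the 3 brachial KO libraries. The median log2 difference of protein-coding genes between KO and heterozygote at the brachial level was −0.12 for spans under 10 kb, −0.05 for 10 to 30 kb, 0.05 for 30 to 100 kb, 0.14 for 100 to 300 kb, and 0.22 for over 300 kb. Of the 510 genes in the longest class, 81.2% had a log2 difference above 0. Of the guidance genes, 6 belong to that class (*Slit2*, *Slit3*, *Robo1*, *Robo2*, *Dcc*, and *Unc5c*) and 3 to the class of 100 to 300 kb (*Slit1*, *Ntn1*, and *Neo1*). Relative to the median of their class, *Dcc* was higher by 0.42, *Slit1* by 0.33, *Robo3* by 0.22, *Robo1* by 0.13, and *Robo2* by 0.11. *Neo1*, *Slit3*, *Slit2*, *Ntn1*, and *Unc5c* were at 0.09, 0.06, −0.02, −0.06, and −0.16. The median deviation of the longest class was 0.30 and 0.31 in brachial KO replicates 2 and 3, and 0.03 in KO replicate 1, against −0.04, 0.11, and −0.08 in the brachial heterozygotes, so that KO replicate 1 was below heterozygote replicate 2. In KO replicate 2 the long genes stood at 0.30 and the guidance genes at 0.06. The long genes were lowest, at −0.31, in lumbar KO replicate 2, the library in which *Robo2* was lowest. Between levels, the longest class had a median of −0.20, against which *Slit3* stood at 0.46, *Dcc* at 0.44, *Slit2* at 0.42, *Robo1* at 0.11, *Unc5c* at 0.04, and *Robo2* at −0.25. *Robo3*, the one short member, was 0.35 above the median of its class (10 to 30 kb). The part of gene span in the differences between genotypes and levels was not tested.

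**Figure D4:**
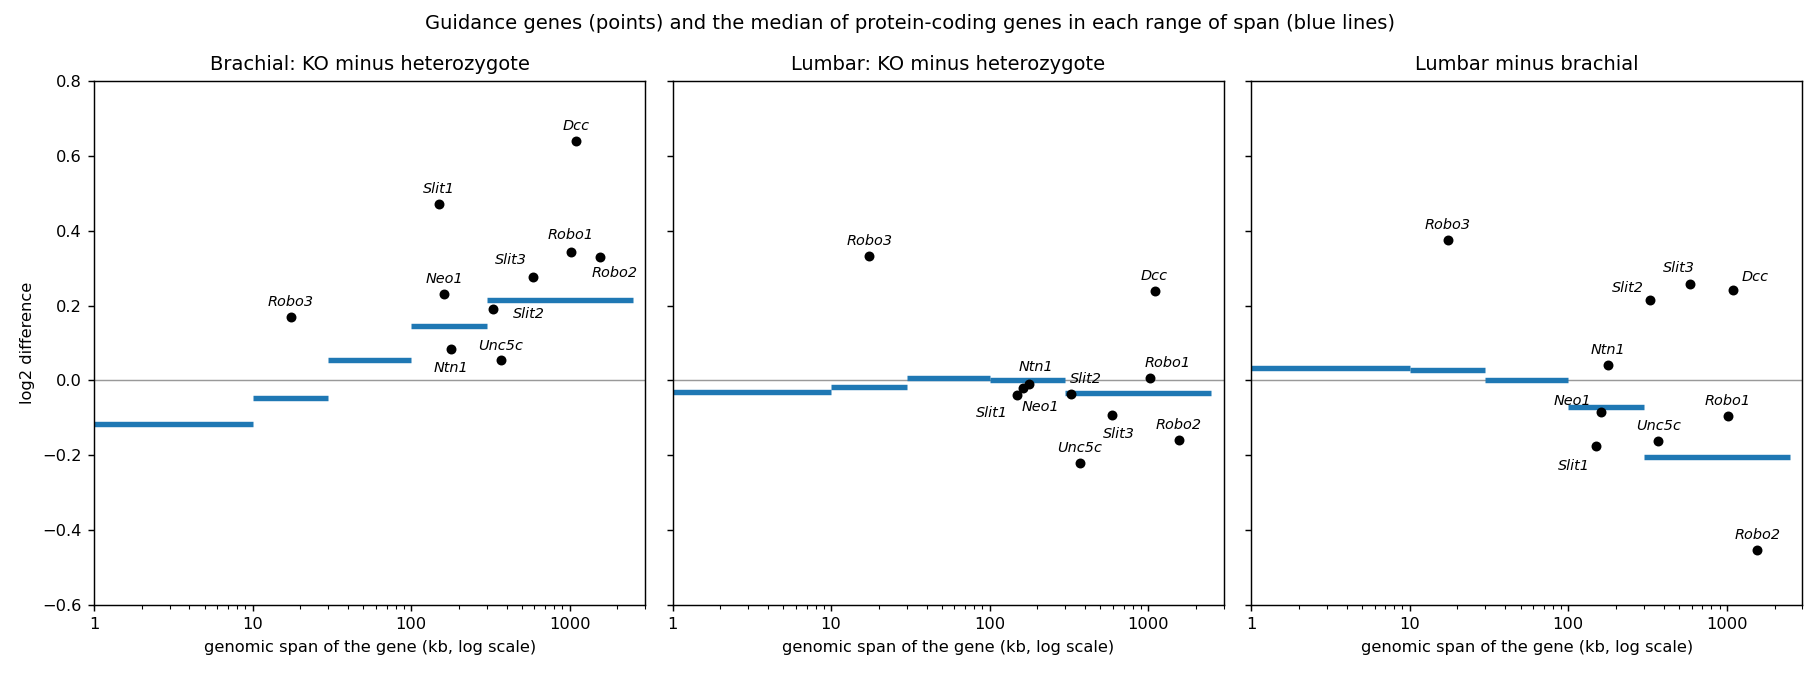
Log2 differences of the 10 guidance genes (points) against genomic span in kb on a log axis, with the median of protein-coding genes in each range of span (blue lines). At the brachial level the median goes from −0.12 under 10 kb to 0.22 over 300 kb, and the points of *Dcc* and *Slit1* lie farthest above it.

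At the lumbar level no guidance gene differed between genotypes at an adjusted p of 0.05 in limma, beside 0% of 16629 genes tested. Only *Robo3* had an unadjusted p under 0.05, beside 4.86% of all genes, and 3 of 10 members had a log2 difference above 0, beside 47.4%. That count was 8 without heterozygote replicate 1 and 7 without KO replicate 3, where the median of the members went from −0.03 to 0.03 and 0.05. The lumbar heterozygotes had 42.8, 49.9, and 41.1 TPM of *Robo3* and the KO libraries 55.8, 48.4, and 65.3. KO replicates 1 and 3 were above all heterozygotes, while KO replicate 2 was below heterozygote replicate 2. The log2 difference was 0.33 (SE 0.12, limma p = 0.0267, adjusted p = 0.999), and the exact permutation p was 0.2. The unadjusted p was under 0.05 only without lumbar heterozygote replicate 2 (difference 0.42) or KO replicate 2 (0.44), and not without any of the other 4 lumbar libraries, with differences down to 0.22.

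The intervals of the other lumbar differences all included 0. *Dcc* was at 33.2, 38.5, and 33.4 TPM in the heterozygotes and 40.5, 32.5, and 53.5 in the KO libraries, a log2 difference of 0.24 (95% interval −0.15 to 0.63). It was 0.05 without KO replicate 3 and 0.41, with an unadjusted p under 0.05, without KO replicate 2. *Unc5c*, which encodes the repulsive netrin receptor, was at 16.6, 16.1, and 16.3 in the heterozygotes and 12.1, 13.3, and 17.0 in the KO libraries. The 3 heterozygotes lay close together and between KO replicates 2 and 3, and the log2 difference was −0.22 (−0.52 to 0.08), or −0.36, with an unadjusted p under 0.05, without KO replicate 3, and −0.12 without KO replicate 1. *Robo2* had a difference of −0.16 (−0.58 to 0.26) and *Slit3* −0.09 (−0.59 to 0.40). *Slit1*, *Slit2*, *Neo1*, *Ntn1*, and *Robo1* lay between −0.04 and 0.01, with the widest interval for *Slit1* (−0.48 to 0.40) and the narrowest for *Neo1* (−0.21 to 0.17). No member's groups were free of overlap, beside 9.94% of all genes tested.

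Whether the KO difference itself differed between levels was tested with an interaction term over the 12 libraries. No member passed an adjusted p of 0.05 in limma, beside 0% of 16706 genes, and none had an unadjusted p under 0.05, beside 4.42%. The lumbar minus brachial difference of the KO effect was −0.34 for *Robo1*, −0.25 for *Neo1*, −0.51 for *Slit1*, and −0.49 for *Robo2*, the members of smallest p, with limma adjusted p of 0.812 each. Without brachial KO replicate 3 these were −0.25, −0.20, −0.46, and −0.36, with limma adjusted p of 0.941 each. For *Dcc* it was −0.40, and −0.13 without that library, for *Slit3* −0.37 and −0.23 (−0.12 without lumbar KO replicate 3), for *Unc5c* −0.27 and −0.19, for *Slit2* −0.23 and −0.07, and for *Ntn1* −0.09 and −0.02. It was positive for *Robo3* alone, at 0.16 with and without that library, and negative for the other 9 genes, beside 49.6% positive over all genes. The median of the longest class of protein-coding genes was −0.28 in the same term, and the median of the 10 members −0.31, or −0.19 without brachial KO replicate 3.

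The microRNA host loci were read at a low level. Mir218-1, within *Slit2*, ranged from 1.39 to 7.003 TPM at the brachial and from 0.40 to 4.70 at the lumbar level, and Mir218-2, within *Slit3*, from 1.77 to 3.96 and from 2.04 to 5.03. The highest Mir218-1 value came from brachial KO replicate 2 and the highest Mir218-2 value from lumbar heterozygote replicate 1, which was also the highest library for *Slit3*. No difference of either locus passed the test in any comparison, and the interval of Mir218-1 between brachial genotypes ran from −0.44 to 2.005 on the log2 scale. A TPM of a feature of 110 bases rests on few reads, and reads of the host intron cannot be told apart from those of the hairpin. Other annotated genes within the 10 members were low, the highest being Mir691 in *Robo2* at a mean of 6.70 TPM.

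Other genes of the same pathways were taken from a list of 47 further family members, ligands, co-receptors and intracellular partners. Of these, 45 passed the filter, and *Ntn5* and *Prrg4* did not, with highest values of 0.08 and 0.18 TPM. Between levels 4 were higher and 7 lower at the lumbar level, beside 8.91% and 9.62% of all genes tested in these directions (limma adjusted p under 0.05). Those higher at the lumbar level were *Ntn4*, another netrin (0.51), *Boc* (0.43), a Shh co-receptor of commissural axons, *Rgmb* (0.40), of the repulsive guidance molecule family that binds neogenin, and the focal adhesion kinase gene *Ptk2* (0.14). Those lower were *Ntng1*, encoding a membrane-anchored netrin-G (−0.80), *Flrt2* (−0.66), *Unc5d* (−0.53), *Dscam* (−0.51), *Flrt3* (−0.49), *Trim9* (−0.41), and the Src family kinase gene *Fyn* (−0.16). Flrt proteins are ligands of Unc5 receptors, Dscam is another netrin receptor, and Trim9 is a ubiquitin ligase that binds Dcc. At the brachial level 35 of 45 had a log2 difference above 0, beside 48% of all genes tested. Of them 11, and 3 of the lower ones, had an unadjusted p under 0.05 (beside 6.71% and 7.18% of all genes), and none passed the adjusted p. The mean log2 deviation was highest in brachial KO replicate 3 for the family members (0.38), the ligands and co-receptors (0.34), and the intracellular partners (0.27). The smallest p there were those of *Trio*, a guanine nucleotide exchange factor downstream of Dcc (0.41), *Rgmb* (0.23), *Srgap2* (0.63), and *Flrt2* (0.34). At the lumbar level 1 of 45 had an unadjusted p under 0.05, *Boc* (0.48), beside 4.86% of all genes, and none passed the adjusted p. *Trio* also had the smallest p of the interaction term among the 45 (−0.50, limma adjusted p = 0.812).

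Markers of several cell types differed with level, and each count of them called between levels stands beside 8.91% of all genes called higher and 9.62% called lower at the lumbar level. The floor plate, the best known source of Slits and netrin-1, was read by 8 markers. Their summed level was 160 to 185 TPM in the brachial heterozygotes and 178 to 214 in the brachial KO libraries. It was 167 to 204 in the lumbar heterozygotes and 145 to 208 in the lumbar KO libraries. Of these markers, 0 of 6 tested were called between levels, beside 18.5% in either direction. The highest sum was in brachial KO replicate 3, also the library of the highest *Slit1* and *Slit2*. The lowest was in lumbar KO replicate 3, also that of the lowest *Slit3* and *Ntn1*. The highest *Slit3* and *Ntn1* and the lowest *Slit1* and *Slit2* were in other libraries. Within that list *Shh* was at 6.09, 7.32, 9.17, and 8.60 TPM in the 4 groups in the same order, and *Foxa1* and *Lmx1a* had group means of at most 0.65 and 0.56. The 8 MN markers summed to 509 to 524 TPM in the brachial heterozygotes, 456 to 491 in the brachial KO, 255 to 334 in the lumbar heterozygotes, and 197 to 272 in the lumbar KO libraries, and 2 of 8 were called lower at the lumbar level, beside 9.62%. The 6 sensory neuron markers summed to 72.0 to 76.9, 59.0 to 70.4, 77.2 to 82.6, and 59.5 to 77.0 TPM in the same groups. Of 15 gene lists, 4 had brachial sums that did not overlap between genotypes. KO was below for the MN and sensory neuron markers and above for the members and the other ligands and co-receptors. The share of single genes was 20.1%, which is not a like measure for sums. Abundant genes weigh most in a sum, and *Isl1* is in both marker lists. In the mean log2 deviation both marker lists overlapped between genotypes, with MN markers highest in KO replicate 3 (0.28). Sensory neuron markers were at −0.08, −0.02, and −0.38 in the heterozygotes and 0.02, −0.11, and 0.06 in the KO libraries. The members' sums came close, at 520.4 (heterozygote) and 521.0 TPM (KO). At the lumbar level 2 lists had sums that did not overlap, the sensory neuron markers and the intracellular partners, both with KO below. The share of single genes was 9.94%. In the mean log2 deviation both lists overlapped between lumbar genotypes. Sensory neuron markers were highest in lumbar KO replicate 2 (0.42). The intracellular partners were at 0.03, 0.001, and −0.09 in the heterozygotes and 0.02, −0.10, and −0.04 in the KO libraries. The 8 progenitor markers summed to 677 to 854 and 867 to 1127 TPM, with 4 called higher and 1 lower at the lumbar level, beside 8.91% and 9.62%. The 7 ventral interneuron markers, several of them from commissural classes, summed to 59.7 to 81.4 and 75.0 to 102 TPM, with 3 called higher, beside 8.91%. Endothelial markers summed to 56.8 to 78.7 TPM in the brachial and 46.6 to 60.1 in the lumbar libraries, with 3 of 5 called lower, and microglial markers to 17.4 to 26.3 and 7.49 to 16.0 TPM, with 4 of 5 called lower, beside 9.62%. The 5 markers of dorsal commissural neurons, the neurons best known for *Robo3* and *Dcc*, summed to 17.6 to 21.1 and 7.21 to 19.4 TPM. *Atoh1* had group means of at most 0.14 TPM. The log2 differences between levels were 0.95 for *Lhx9*, −0.91 for *Barhl1*, and −0.96 for *Barhl2*, given here as sizes only. The part of these markers in the differences of the guidance genes between levels and genotypes was not tested.

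The genes whose pattern over the 12 libraries was most like those of the called members were found by the root-mean-square (RMS) difference of centred log2 values. For *Robo2* they were *Atp8a1* (0.10), *Dock3* (0.10), and *Ephb1* (0.11), beside a median of 0.40 over all genes. For *Robo3* they were *Zbtb18* (0.11), *Gja1* (0.11), and *2610307P16Rik* (0.11), beside a median of 0.34. All 3 genes found for *Robo2* were lower on average in the lumbar libraries, which follows from their being picked for a like pattern. They were at 40.4 against 55.8 TPM (*Atp8a1*), 9.10 against 12.8 (*Dock3*), and 20.2 against 27.0 (*Ephb1*, an Eph receptor gene). These likenesses are descriptions over libraries that share depth and composition.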

How the data were processed

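Total RNA (stranded, ribosomal RNA removed) of 12 libraries was analysed. Per the submitters' notes, the authors used FastQC 0.11.7, Trimmomatic 0.38, HISAT2 2.1.0, Bowtie2 2.3.4.1 (mm10), and StringTie 2.1.3b. The deposited values are TPM, FPKM and per-base coverage for each gene, by NCBI identifier. No counts were available here, so DESeq2, which the authors used, was not run. Whether StringTie was given the strand was not stated in the sources used here. Symbols came from RefSeq GRCm38.p6 (45679 of 45777 identifiers), and values of 6 identifiers on repeated lines were summed.

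TPM was divided by median-of-ratios size factors (0.893 to 1.247), 0.1 was added, and genes with a mean of at least 0.5 were fitted on the log2 scale by limma 3.58.1 (trend, R 4.3.3), with Benjamini-Hochberg adjustment over all genes. KO and heterozygote were compared within each level (6 libraries), and level and interaction over 12. Aligned bases were read from coverage over FPKM. Without counts a gene's counting error is unknown, and p-values measure the spread between libraries. Each fit was checked on simulated data. Python 3.11.15, pandas 2.3.3 and matplotlib 3.10.9 were used.

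Members and lists were chosen with earlier results of these data known. Named genes are the members, hosted microRNAs, *Isl2*, listed pathway genes past the adjusted p or the 4 of smallest p, and the 3 genes most like a called member. *Xist*, Mir691, and single marker genes were named after their values were seen.

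Same-numbered libraries correlated in their deviations from group means at 0.11, 0.30, and 0.06 (brachial genotypes) and 0.16, −0.30, and −0.11 (lumbar), and between levels at −0.05, 0.29, and 0.48 (heterozygotes) and 0.03, −0.26, and 0.07 (KO), and only 3 of 6 same-numbered brachial and lumbar pairs agreed in sex-linked genes, so numbers were not taken to pair embryos.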

Additional observations from a re-analysis of the deposited data

How the results depend on the processing

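The limits are 3 libraries a group, no counts, and 1 KO library of low depth. Alternatives were other pseudocounts, no filter or one at a mean TPM of 1, TPM as deposited, quantile normalization, FPKM, coverage, protein-coding genes, no trend, a replicate block, 1 fit of 12 libraries, and each library left out; single-genotype fits and brachial KO replicate 1 alone were added after seeing the data. For brachial KO replicate 1 alone only the sizes of differences are given, since 1 library has no spread of its own. No member was called between genotypes, nor in the interaction term, under any of the other alternatives. Of 10 members, 2 were called between levels, beside 3095 of 16706 genes. The count was 1 with no filter (beside 2694 of 30567 genes), as deposited (2860 of 16736), and with quantile normalization (3241 of 16736). It was also 1 without the trend (2854 of 16706) or with the replicate block (2327 of 16706). In the heterozygotes alone it was 0 (488 of 16632), as in the KO libraries alone (298 of 16796). With a library left out it was 1 to 2, beside 2063 to 3557 genes. With the block *Robo2* had an adjusted p of 0.0579, and it changed no other call. Members under an unadjusted p of 0.05 between levels were 3 (beside 32.2% of all genes), and 5 without brachial KO replicate 3 (32.7%), and 2 to 4 otherwise. At the brachial level they were 4 (beside 13.9% of all genes), but 8 as deposited (17%, a scaling with an all-gene median of 0.16 there and −0.17 in the interaction). They were 3 with coverage (13.6%), 2 without the trend (10.3%), and 1 to 7 with a library left out (4.67% to 25.9%). At the lumbar level they were 1 (4.86%), but 0 without the trend (5.08%) or with the block (5.79%), and 0 to 2 with a library left out (3.6% to 6.33%). In the interaction they were 0 (4.42%), but 2 with the block (4.23%) and 0 to 4 with a library left out (2.31% to 12.6%). The causes were not tested.

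No called difference changed sign. Values that did were, for KO replicate 1 alone, −0.11 (*Slit2*), −0.030 (*Robo2*), and −0.15 (*Unc5c*). In the lumbar genotypes they were 0.0014 (as deposited) and 0.014 (quantile) for *Ntn1*, and with coverage 0.058 for *Slit1* and −0.014 for *Robo1*. The interaction of *Robo3* was −0.00066 as deposited. Between levels they were −0.10 (as deposited), −0.0039 (quantile) and −0.0054 (KO libraries) for *Ntn1*, and in the heterozygotes 0.080 for *Slit1*, 0.074 for *Robo1*, and 0.040 for *Neo1*. With a library left out, lumbar ranges that crossed 0 were −0.19 to 0.13 (*Slit1*), −0.12 to 0.034 (*Slit2*), −0.23 to 0.16 (*Slit3*), −0.068 to 0.090 (*Robo1*), −0.30 to 0.021 (*Robo2*), −0.13 to 0.14 (*Ntn1*), and −0.063 to 0.042 (*Neo1*). So did −0.034 to 0.15 for *Unc5c* at the brachial level, and for *Ntn1* −0.22 to 0.055 in the interaction and −0.0083 to 0.11 between levels.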
